A study of Mus musculus with 10 samples.

Results

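Cytosolic sulfotransferases transfer a sulfonate group from the donor PAPS (3'-phosphoadenosine 5'-phosphosulfate) to small hydroxyl- or amine-bearing molecules, which makes steroids, bile acids, catecholamines, thyroid hormones, phenols and many drugs more water-soluble and easier to excrete. The liver is a main site of this reaction. In mouse liver several of these enzymes are made at different levels in males and females under the control of growth hormone and androgens, and several respond to nuclear receptors such as CAR, PXR and FXR. The genes described here are 9 named members of the family, listed with earlier results of these data known: Sult1a1, Sult1b1, Sult1c2 and Sult1d1 (the phenol-type SULT1 family), Sult2a1, Sult2a2 and Sult2a5 (the hydroxysteroid-type SULT2A subfamily), Sult3a1 (an amine sulfotransferase) and Sult5a1 (an enzyme whose substrates are not settled). They were followed among 39056 genes in the count table. All 9 had at least 1 read, and 8 passed the filter on low counts that left 15811 genes for testing. Sult2a1 did not pass it.

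The study asked which gene expression in carcinogen-induced mouse liver cancer depends on the mixed-lineage kinase MLK3. Male C57BL/6 mice were either wild-type (WT) or MLK3-knockout (KO), and tissue was taken at 11 months of age. Control mice drank plain autoclaved water and gave normal liver (WT liver, n = 2; KO liver, n = 2). Treated mice received diethylnitrosamine (DEN), a DNA-alkylating liver carcinogen, in 1 injection into the abdominal cavity (5 µg per g body weight) when 2 weeks old. From 1 week later to the end their water held 0.05% phenobarbital (PB), a tumour promoter that activates the receptor CAR (WT tumour, n = 3; KO tumour, n = 3). All 4 groups shared strain, sex and age, and both tumour groups received both agents, so that DEN, PB and tumour growth cannot be told apart. Treated samples are tumour tissue in the labels but treated liver in the text on RNA extraction. The design of the knockout allele and the way tumours were dissected are not given in the sources used. The samples are described as biological replicates, and whether each came from a separate animal is not stated.

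Libraries were made with a strand-specific 3' tag kit, in which a read comes from the 3' end of a transcript, and held 12408749 to 18081487 counts. Values are CPM after TMM scaling, that is counts scaled to a common library total. A transcript gives about 1 tag whatever its length, so levels of different genes are set side by side on this scale without a length correction. A gene with no count in a library was at or under 3 counts, or 0.156 to 0.231 CPM, for counting error only. Map3k11, the gene of MLK3, was read at 7.91 to 14.9 CPM in the 5 WT libraries and at 5.37 to 10.3 CPM in the 5 KO libraries. These ranges overlapped, and since tags come from the 3' end and the deleted part of the gene is not given, this does not check the genotype. KO tumour replicate 2 stood apart from the other tumours: 6 liver tumour markers (Afp, Gpc3, H19, Igf2, Scd2, Golm1) summed to 17.1 CPM there, within the 6.05 to 20.5 CPM of the 4 livers, against 360 and 2800 CPM in the other KO tumours and 1030 to 1850 CPM in WT tumours. Values without it are given beside the main comparisons that use KO tumours. Each group comes from whole tissue, in which fewer cells of a type and less RNA per cell cannot be told apart.

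The summed level of the 9 genes lay close together in the 4 groups, while their share of all cytosolic sulfotransferase reads was highest in WT tumours. Their summed level was 196 ± 54 CPM in WT liver (SD, n = 2), 223 ± 62 CPM in KO liver (n = 2), 221 ± 48 CPM in WT tumours (n = 3) and 208 ± 21 CPM in KO tumours (n = 3). Across all 27 rows of the table with a cytosolic Sult symbol the sums were 422 ± 86, 423 ± 54, 235 ± 51 and 403 ± 43 CPM. The 9 genes thus made up 46 ± 3.3% of all Sult counts in WT liver, 52.3 ± 8% in KO liver, 94 ± 2.1% in WT tumours and 51.6 ± 3% in KO tumours. Most of the remainder was 1 gene outside the 9, Sult2a8, a liver sulfotransferase known to act on bile acids, with 53.1 ± 3%, 47 ± 9%, 3.29 ± 0.81% and 44.7 ± 4.4% of Sult counts. KO tumour replicates 1 and 3 alone had 49.7 and 55.1% of Sult counts in the 9 genes and 44.1 and 40.6% in Sult2a8.

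**Figure D1:**
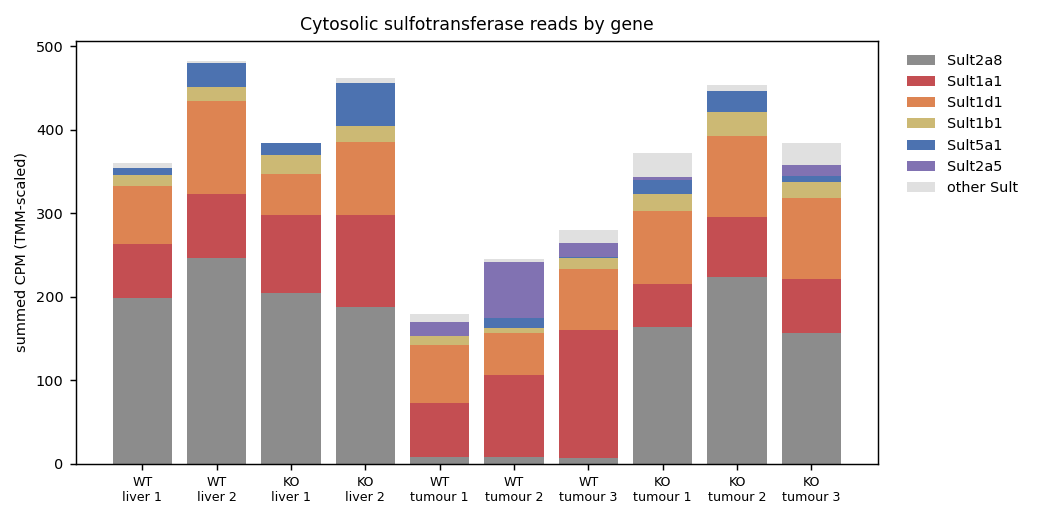
Stacked bars give the summed TMM-scaled CPM of cytosolic sulfotransferase reads in each of the 10 libraries, split by gene. The grey Sult2a8 block takes 40.6 to 55.2% of the reads in livers and KO tumours and 2.62 to 4.19% in WT tumours, where the purple Sult2a5 block is larger than in any other library.

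Among the 8 tested members, only Sult2a5 passed the test in any of the 5 comparisons, and it did so in WT tumours against WT liver, where it was higher (edgeR quasi-likelihood test, Benjamini-Hochberg adjusted p under 0.05 over all genes). In that comparison 3.64% of all tested genes were called higher and 4.7% lower, 8.34% in all. No member was called in KO tumours against KO liver, where 0.0759% of genes were called and 1520 genes had an unadjusted p under 0.05. None was called between KO and WT liver, where 0.00632% of genes were called, which is 1 gene (Fam102b, named after its value was seen), and 1151 had an unadjusted p under 0.05. None was called between KO and WT tumours, against a background of 4.52% (3.25% higher and 1.27% lower), with 2362 genes at an unadjusted p under 0.05. None was called in the test of whether the tumour-to-liver change differed between genotypes (the interaction), against a background of 1.59%, with 2006 genes at an unadjusted p under 0.05. DESeq2 also called Sult1b1 higher in KO than in WT tumours, where it called 8.17% of genes, and no other member beyond Sult2a5. Without KO tumour replicate 2, Sult2a5 was also called in KO tumours against KO liver, where 1.29% of genes then passed, and still no member between tumours or for the interaction (2.93% and 1.4% of genes). The median fitted log2 fold change of the tested members was 0.29 in WT tumours against WT liver, 3.79 in KO tumours against KO liver, 0.01 between livers and 0.87 between tumours, beside 0.09, 0.06, 0 and -0.03 for all genes. With members at or under 3 counts in 1 group put at their bound, and those so in both groups left out, the medians were 0.59 (7 members), 1.66 (8), 0.51 (5) and 0.87 (8). Sult2a2, Sult2a5 and Sult3a1 had 0 or 1 count in every liver and passed the low-count filter only through tumours. Sult1c2 had no count in the KO livers. Tumour-to-liver values of such members could hardly be negative, so both kinds of tumour-to-liver median are raised by this and are not a result about the members.

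**Figure D2:**
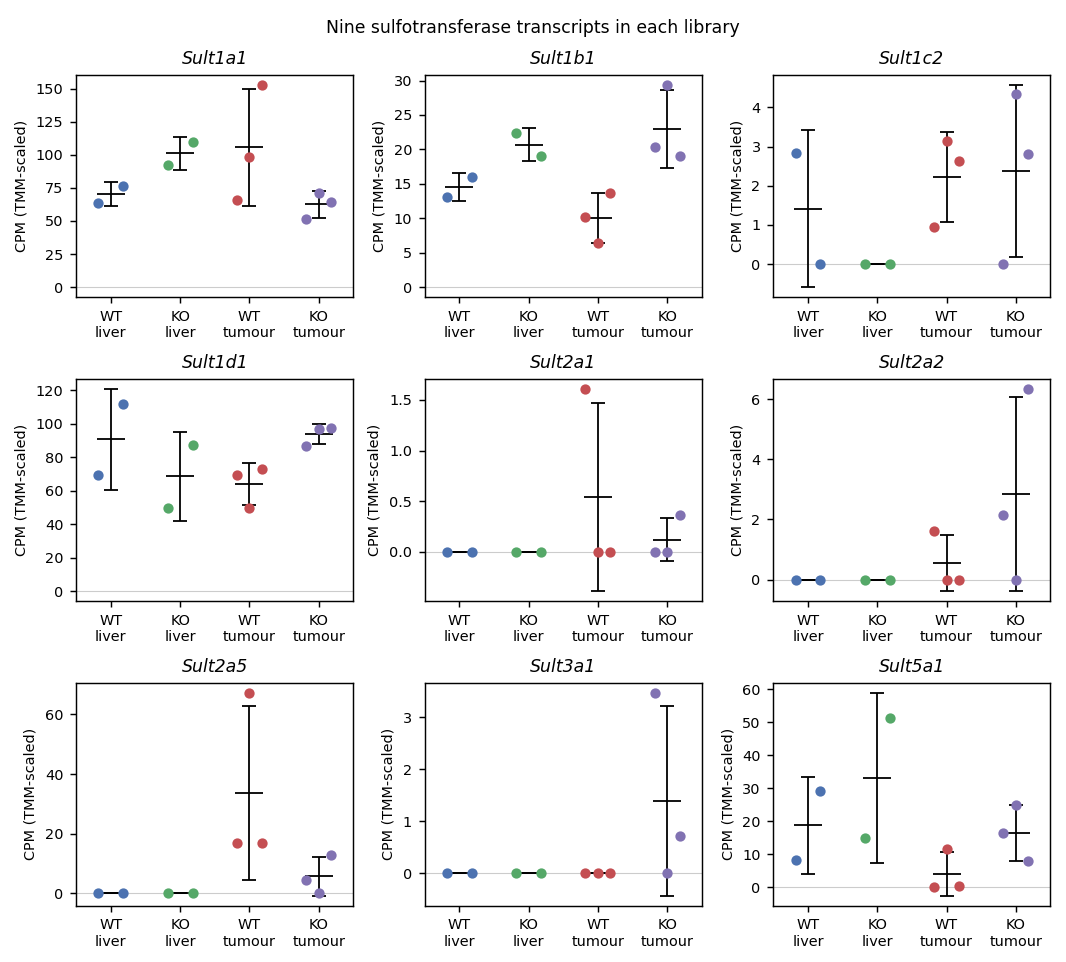
Each panel plots 1 of the 9 members as TMM-scaled CPM on a linear axis. Points are libraries, horizontal bars are group means and whiskers are 1 SD (n = 2 per liver group, n = 3 per tumour group). Sult2a5 is at 0 to 0.0708 CPM in the 4 livers and at 16.8 to 67.2 CPM in the WT tumours.

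The Sult2a genes lie in a cluster of 12 rows of the annotation (8 coding genes and 4 pseudogenes) over 870264 bases of chromosome 7, from 13623967 to 14494230 (GRCm38). Sult2a5 (ENSMUSG00000078799.5) is at the cluster's first edge, at 13623967 to 13670807 on the plus strand. Sult2a2 (ENSMUSG00000070811.6) is at 13733505 to 13779636 on the plus strand and Sult2a1 (ENSMUSG00000078798.4) at 13796246 to 13837409 on the minus strand. Sult2a8 lies 739879 bases beyond Sult2a5, at 14410686 to 14446769 on the minus strand. The coding sequences of Sult2a1 and Sult2a5 were 94.9% identical and those of Sult2a5 and Sult2a8 69.1%. This likeness bears on how reads are assigned. Of the 251 stretches of 50 bases in the last 300 bases of the Sult2a5 transcript, 72.5% were also found in another gene, 167 of them in Sult2a2, 86 in Sult2a4 and 23 in Sult2a1. For Sult2a2 the share was 76.9% and for Sult2a1 9.16%, while the ends of the Sult2a7 and Sult2a8 transcripts shared none. The Sult2a7 transcript used has 0 bases after its coding sequence, so its true 3' end may not have been searched. How the authors treated reads that match several genes is not given, so both the split of reads among Sult2a1 to Sult2a6 and their level are uncertain.

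Sult2a5, a hydroxysteroid sulfotransferase of the group that sulfonates DHEA and bile acids, was nearly silent in liver and was read in all WT tumours. The WT livers gave 1 and 0 counts of Sult2a5, the KO livers 0 and 1, the WT tumours 322, 924 and 264, and the KO tumours 55, 0 and 176. On the CPM scale the livers were at 0.0628, 0, 0 and 0.0708, the WT tumours at 16.8, 67.2 and 16.9, and the KO tumours at 4.24, 0 and 12.7. The 3 WT tumours lay above all livers and above all KO tumours, and the KO tumour at 0 was replicate 2, the library with liver-like marker levels. Sult2a5 took 14.3 ± 11% of all Sult counts in WT tumours and 0.00871 ± 0.012% in WT liver.

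WT tumours held 33.6 ± 29 CPM of Sult2a5 (SD, n = 3) against 0.0314 ± 0.044 CPM in WT liver (n = 2), at least 178-fold higher when liver is put at 3 counts per library, and at least 89.3-fold without WT tumour replicate 2, the library at 67.2 CPM. The fitted log2 fold change was 9.73 (SE 1.98, adjusted p = 0.0057), a value that depends on the prior count since both livers were at or under 1 count. KO tumours held 5.64 ± 6.5 CPM against 0.0354 ± 0.05 CPM in KO liver, at least 29.4-fold higher by the same reckoning (11-fold without replicate 3 and 44.1-fold without replicate 2 of the KO tumours), and the fitted log2 value of 7.13 (SE 1.91) missed the threshold (adjusted p = 0.19). It was 7.72 and passed without KO tumour replicate 2 (adjusted p = 0.0072), and it also passed without the low-count filter (adjusted p = 1.7e-10). With DESeq2 it did not pass (7.42, adjusted p = 0.067). The level in KO tumours was 5.96-fold lower than in WT tumours (log2 fold change -2.57, SE 1.04), which did not pass either (adjusted p = 0.24). This log2 value was -1.55 without WT tumour replicate 2, -1.99 without KO tumour replicate 2 (adjusted p = 0.27) and -3.99 without KO tumour replicate 3. It passed without the low-count filter (-2.58, adjusted p = 7e-05) and did not pass with DESeq2 (-2.6, adjusted p = 0.52). The test of whether the tumour-to-liver change differed between genotypes gave -2.6 with an SE of 4.18 (adjusted p = 0.89, and -2.01 without KO tumour replicate 2), too wide to show a difference when all 4 livers are at or near 0.

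Some markers of other cells differed between WT liver and WT tumours along with Sult2a5. The 6 liver tumour markers, all detected in every group, summed to 6.05 to 10.1 CPM in WT liver and 1030 to 1850 CPM in WT tumours. The 7 cholangiocyte markers (Epcam, Krt19, Krt7, Sox9, Spp1, Tspan8, Cftr), all detected in both groups, summed to 89.7 to 122 CPM and 263 to 501 CPM. Most of that gap came from Tspan8 (1.64 and 2.01 against 69.7 to 285 CPM) and Spp1 (6.93 and 16.4 against 54.9 to 220 CPM). Sox9 was at 78.7 and 102 against 107 to 121 CPM. Epcam (0 and 0.63 against 1.6 to 5.71 CPM) and Krt7 (0 and 0.378 against 0.385 to 0.801 CPM) were low and did not overlap, while Krt19 and Cftr overlapped between the groups. Gut, kidney and adrenal gland also make sulfotransferases, and of their 7 markers Vil1, Sis, Umod, Slc34a1 and Cyp11b1 were at 0 in WT liver and Umod, Slc34a1 and Cyp11b1 in WT tumours. Their sums of 32.7 to 35.8 and 53.1 to 97.6 CPM were nearly all Fabp2 (30.3 and 32.7 against 52.5 to 96.5 CPM). The 8 hepatocyte markers summed to 48500 to 49500 CPM in WT liver and 77700 to 102000 CPM in WT tumours, with Alb (22800 and 24400 against 50500 to 62100 CPM) and Apoa1 (3780 and 3800 against 9700 to 14000 CPM) as the main part of the gap. Others of the list were lower in WT tumours, among them Cps1 (1580 and 1760 against 616 to 734 CPM), Apoc3 (2550 and 2730 against 1580 to 2180 CPM) and Hnf4a (178 and 221 against 121 to 123 CPM). The part of these cells in the Sult2a5 result was not tested.

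Sult2a1 and Sult2a2 were rare and were read only in tumours. Sult2a1, the enzyme usually taken to stand for the subfamily, had 31 counts (1.61 CPM) in WT tumour replicate 1 and 5 counts (0.36 CPM) in KO tumour replicate 3, and none in the other 8 libraries. Sult2a2 had 31 counts (1.61 CPM) in WT tumour replicate 1, 28 (2.16 CPM) in KO tumour replicate 1 and 88 (6.34 CPM) in KO tumour replicate 3. It did not pass in WT tumours against WT liver (adjusted p = 0.35), in KO tumours against KO liver (adjusted p = 0.52, and 0.38 without KO tumour replicate 2) or between tumours (adjusted p = 0.78, and 0.76). With no count in any liver, its interaction could not be estimated.

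The rows Sult2a1 to Sult2a6, whose 3' ends share sequence, were also summed, so that the split of reads among them does not enter. Reads that match several genes may also have been left out of the counts, which a sum does not restore. The WT livers had a sum of 1 and 0 counts, the KO livers 0 and 1, the WT tumours 384, 924 and 272, and the KO tumours 84, 0 and 269. The sum was higher in WT tumours than in their livers (log2 fold change 9.78, SE 2.02, adjusted p = 0.0063) and did not pass between KO tumours and KO liver (7.75, adjusted p = 0.17) or between KO and WT tumours (-2.02, adjusted p = 0.38). This sum was chosen after the values had been seen. The sum over all 12 Sult2a rows went the other way, with Sult2a8 as most of it. It was 226 ± 33 CPM in WT liver, 198 ± 9.9 in KO liver, 42.9 ± 28 in WT tumours and 196 ± 26 in KO tumours. That sum fell in WT tumours against WT liver (log2 fold change -2.4, SE 0.36, adjusted p = 0.00058) and was higher in KO than in WT tumours (2.19, SE 0.34, adjusted p = 0.001, and 2.08 with adjusted p = 0.0048 without KO tumour replicate 2). It did not pass between KO tumours and KO liver (-0.02, SE 0.36, adjusted p = 1, and -0.13 without KO tumour replicate 2). Its interaction was 2.38 (SE 0.52, adjusted p = 0.03). The call was lost without either KO liver, KO tumour replicate 2 or 3, WT liver replicate 2 or WT tumour replicate 1 (adjusted p = 0.061 to 0.095, and 0.062 without KO tumour replicate 2).

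Sult2a8, in the same cluster, ran opposite to Sult2a5 in WT tumours. The WT livers held 199 and 246 CPM of it, the KO livers 205 and 188, the WT tumours 7.5, 7.5 and 7.31, and the KO tumours 164, 224 and 156. The 3 WT tumours lay far below every other library and close to each other. Sult2a8 was 29.9-fold lower in WT tumours than in WT liver (adjusted p = 5.9e-08) and 24.4-fold higher in KO than in WT tumours (adjusted p = 8.2e-08). Both comparisons use the WT tumours. KO tumours and KO liver differed by -0.12 on the log2 scale (SE 0.22, adjusted p = 0.92), and the interaction was 4.79 (SE 0.34, adjusted p = 6.7e-06). These values were -0.29 and 4.61 without KO tumour replicate 2, and KO against WT tumours then gave 4.43. Over the 10 libraries, which include the groups themselves, Pearson's r of log2(CPM + 1) was -0.85 between Sult2a5 and Sult2a8.

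**Figure D3:**
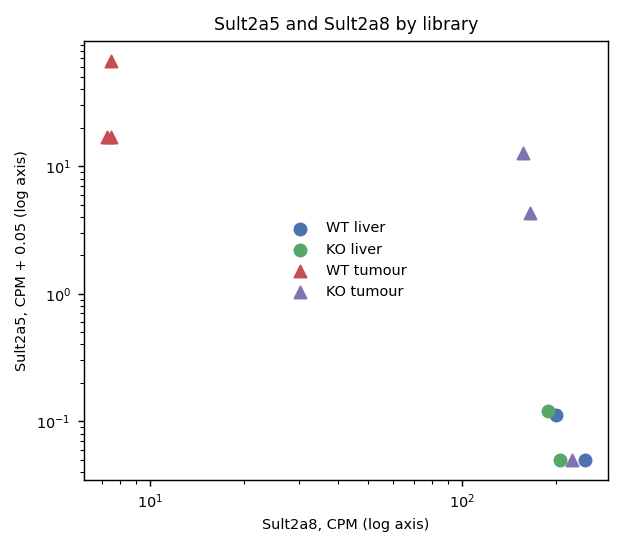
Each point is a library, with Sult2a8 CPM on the x axis and Sult2a5 CPM plus 0.05 on the y axis, both logarithmic. The 3 WT tumours sit at 7.31 to 7.5 CPM of Sult2a8 and 16.8 to 67.2 CPM of Sult2a5, while KO tumour replicate 2 lies among the livers.

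The bases before the start of Sult2a5 are shown because they hold a nuclear receptor motif of the SULT2A family. RefSeq's promoter table (GRCm38.p6) matched 7 of the 9 members, and Sult2a1 and Sult2a2 had no entry. The 250 bases before each start were searched on both strands for the inverted repeat GGGTCATGAACT, a form of the repeat without spacer known from SULT2A promoters as a binding site for nuclear receptors such as FXR, PXR and CAR. It was found in 2 of 32851 windows (0.00609%), that of Sult2a5, 167 bases before the start on the gene's strand, and that of Zfp112. Any given string of 12 bases is found in few such windows, and this one was taken from SULT2A promoters, so that neither its rarity nor its presence in a Sult2a window is a result. The other Sult2a windows held near matches, whose changes are counted from position 1 at the 5' end of the repeat: G2A in Sult2a4 (246 bases before the start), C5A in Sult2a3 (190 bases) and G1T in Sult2a6 (211 bases). The best match in the Sult2a8 window had 4 mismatches. The repeat or its closest match is in capitals in the following stretches, each written 5' to 3' on the gene's strand.
Sult2a5: tctgatttgGGGTCATGAACTtggtctcac
Sult2a4: tttcGAGTCATGAACTtggtctcac
Sult2a3: tccagtttgGGGTAATGAACTtggtctcac
Sult2a6: tctggtttgTGGTCATGAACTcgggctcac

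The whole windows of the pair that moved in opposite directions are given for comparison. The first is chr7:13623717-13623966 on the plus strand, with the repeat in capitals, and the second is chr7:14446588-14446837 on the minus strand, before the first of 2 starts of Sult2a8.
Sult2a5: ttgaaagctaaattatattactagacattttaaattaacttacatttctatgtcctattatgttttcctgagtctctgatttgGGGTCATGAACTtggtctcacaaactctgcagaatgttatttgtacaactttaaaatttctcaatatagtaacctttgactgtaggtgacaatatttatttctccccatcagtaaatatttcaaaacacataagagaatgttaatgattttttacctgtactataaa
Sult2a8: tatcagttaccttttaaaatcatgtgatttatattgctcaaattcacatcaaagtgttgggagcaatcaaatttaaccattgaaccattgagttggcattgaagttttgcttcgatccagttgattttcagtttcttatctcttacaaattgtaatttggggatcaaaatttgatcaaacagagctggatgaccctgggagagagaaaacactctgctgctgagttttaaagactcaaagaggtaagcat

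Among the other members, the receptor core motif AGGTCA, present in 14% of all windows, was found once, in the window before the first start of Sult1b1, and the STAT motif TTCNNNGAA, present in 7.02% of windows, once, in that of Sult3a1. A match describes letters in a window and not a binding event, and Sult2a4, Sult2a3 and Sult2a6 with their near matches had 1, 0 and 8 counts over the 10 libraries.

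In the SULT1 family the levels of 3 abundant members differed between groups by less than the test could separate. Sult1a1 (chromosome 7, 126672865 to 126676432, minus strand), which sulfonates small phenols and activates some aromatic carcinogens, was one of the pair of most abundant members in every group. Sult1a1 was at 63.7 and 76.7 CPM in the WT livers, at 92.3 and 110 in the KO livers, at 65.5, 98.6 and 153 in the WT tumours, and at 51.4, 71.3 and 64.7 in the KO tumours. The KO tumours lay below both KO livers, while the WT tumours spread from the level of WT liver to about that of KO liver and above. The mean was 62.5 ± 10 CPM (SD, n = 3) in KO tumours and 101 ± 12 CPM (n = 2) in KO liver, which is -0.69 on the log2 scale (SE 0.3, adjusted p = 0.47, and -0.8 with adjusted p = 0.36 without KO tumour replicate 2). WT tumours held 106 ± 44 CPM against 70.2 ± 9.2 CPM in WT liver (0.59, SE 0.31, adjusted p = 0.29). The difference of these changes was -1.28 (SE 0.43, unadjusted p = 0.0096, adjusted p = 0.2, and -1.39 with adjusted p = 0.23 without KO tumour replicate 2), and KO against WT tumours gave -0.76 (SE 0.27, adjusted p = 0.17, and 0.23 without KO tumour replicate 2). Both passed without the low-count filter (adjusted p = 0.04 and 0.041), and the second also without WT tumour replicate 1 (-1, adjusted p = 0.044). The table does not say whether strand was used in counting, and Sgf29 overlaps Sult1a1 on the opposite strand, so reads of the pair may not be separate.

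Sult1b1 (chromosome 5, 87513339 to 87538195, minus strand), which acts on thyroid hormones and catechols, had its lowest mean in WT tumours. WT livers gave 13.1 and 16 CPM, KO livers 22.4 and 19, WT tumours 10.2, 6.4 and 13.6, and KO tumours 20.3, 29.4 and 19. Each KO tumour was above each WT tumour, and each KO liver above each WT liver. The KO tumour mean of 22.9 ± 5.7 CPM was 2.28-fold the WT tumour mean of 10.1 ± 3.6 CPM in the fit (1.19 on the log2 scale, SE 0.37), which missed the threshold in edgeR (adjusted p = 0.089) and passed it in DESeq2 (adjusted p = 0.033). Without KO tumour replicate 2, the highest KO tumour, it was 0.97 with an adjusted p of 0.36. KO against WT liver gave 0.51 (SE 0.44, adjusted p = 0.85), WT tumours against WT liver -0.53 (SE 0.4, adjusted p = 0.48), and KO tumours against KO liver 0.14 (SE 0.4, adjusted p = 0.96), or -0.08 without KO tumour replicate 2.

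Sult1d1, the neighbour of Sult1b1 (chromosome 5, 87554645 to 87569027, minus strand), sulfonates catecholamines such as dopamine in rodents. The WT livers were at 69.5 and 112 CPM, the KO livers at 49.9 and 87.2, the WT tumours at 69.5, 49.9 and 72.7, and the KO tumours at 87, 97 and 97.3. The KO tumours lay above all WT tumours and close to each other, while the livers of each genotype spread widely. The mean was 93.8 ± 5.9 CPM in KO tumours and 64 ± 12 CPM in WT tumours, a log2 difference of 0.55 (SE 0.26, adjusted p = 0.33, and 0.54 without KO tumour replicate 2). The tumour-to-liver change was -0.5 (SE 0.28, adjusted p = 0.33) in WT and 0.45 (SE 0.29, adjusted p = 0.62) in KO mice, and their difference was 0.95 (SE 0.41, adjusted p = 0.35). The KO change and the difference were 0.43 and 0.93 without KO tumour replicate 2 (adjusted p = 0.65 and 0.44).

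Sult1c2 (chromosome 17, 53829637 to 53846339, minus strand), a SULT1 enzyme less studied in liver, was read at low levels or not at all. WT livers gave 45 and 0 counts, KO livers 0 and 0, WT tumours 18, 43 and 41, and KO tumours 0, 62 and 39, or at most 4.33 CPM. It was read in 5 of 6 tumours and 1 of 4 livers. No comparison passed, with adjusted p of 0.92 in WT tumours against WT liver, 0.42 in KO tumours against KO liver, 0.68 between livers and 1 between tumours. Between tumours the log2 value of 0.09 turned to -0.66 without KO tumour replicate 2 (adjusted p = 0.99).

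Sult3a1 (chromosome 10, 33857721 to 33879532, plus strand), an amine sulfotransferase made mainly by female mouse liver, was read in KO tumours alone, with 45 counts (3.47 CPM) in replicate 1 and 10 (0.721 CPM) in replicate 3. The remaining 8 libraries had none. KO against WT tumours had an adjusted p of 0.32 and KO tumours against KO liver 0.58 (0.35 and 0.48 without KO tumour replicate 2), so that presence in 2 of 3 KO tumours was not separated from absence elsewhere. Its neighbour Sult3a2 had no count in any library.

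Sult5a1 (chromosome 8, 123140192 to 123158315, minus strand) varied more between replicates than any other member read in all libraries. Its level was 8.42 and 29.1 CPM in the WT livers, 14.8 and 51.3 in the KO livers, 0.156, 11.6 and 0.385 in the WT tumours, and 16.6, 25 and 7.86 in the KO tumours. WT tumour replicates 1 and 3 were at 3 and 6 counts, below every other library, and replicate 2 lay inside the range of the livers and KO tumours. The WT tumour mean was 4.06 ± 6.6 CPM, beside 18.7 ± 15 CPM in WT liver (-2.22 on the log2 scale, SE 1.11, adjusted p = 0.27) and 16.5 ± 8.6 CPM in KO tumours (KO against WT 2.04, SE 1.04, adjusted p = 0.38). Without WT tumour replicate 2 the values were -6.12 (adjusted p = 0.0014) and 5.94 (adjusted p = 0.002), and the interaction moved from 1.22 (SE 1.57, adjusted p = 0.85) to 5.13 (adjusted p = 0.037). The Sult5a1 calls thus depend on that library. They also depend on the fit, since with all libraries both comparisons passed without the low-count filter (-2.23, adjusted p = 5.5e-05, and 2.04, adjusted p = 0.00013) and the second with a replicate block (3.32, adjusted p = 0.023). Without KO tumour replicate 2 KO against WT tumours gave 1.61 (adjusted p = 0.68). KO tumours against KO liver gave -1 (SE 1.08, adjusted p = 0.82, and -1.43 without KO tumour replicate 2) and KO against WT liver 0.82 (SE 1.21, adjusted p = 0.96). Of its 3' end stretches 14.3% occur in other genes, and Gm20388 overlaps it on the opposite strand.

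**Figure D4:**
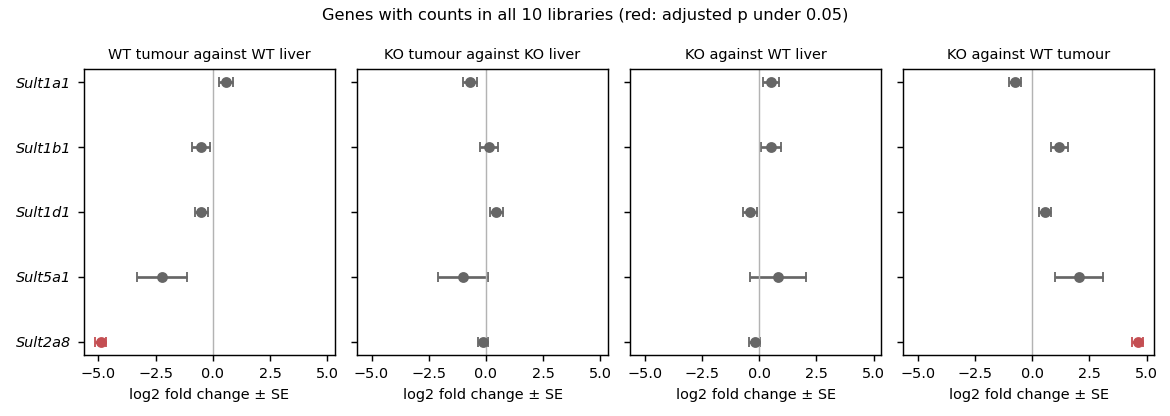
Points are log2 fold changes and whiskers 1 SE from the edgeR fit for the 4 members read in all 10 libraries and for Sult2a8, in 4 comparisons. Red marks an adjusted p under 0.05, reached here by Sult2a8 alone, at -4.9 in WT tumours against WT liver and 4.61 in KO against WT tumours.

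Ordered by mean level, Sult1d1 led in WT liver (90.6 ± 30 CPM) and KO tumours (93.8 ± 5.9 CPM), and Sult1a1 in KO liver (101 ± 12 CPM) and WT tumours (106 ± 44 CPM). The values of this pair overlapped within each WT group, liver and tumour alike. Among KO livers both Sult1a1 values (92.3 and 110 CPM) lay above both Sult1d1 values (49.9 and 87.2 CPM), although the SDs overlapped. Among KO tumours the order was reversed, with every Sult1d1 value above every Sult1a1 value. Sult5a1 and Sult1b1 followed in the livers and overlapped each other there. In WT tumours Sult2a5 came next by mean (33.6 ± 29 CPM), with 2 of its 3 libraries at 16.8 and 16.9 CPM, above every Sult1b1 value in that group.

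For the donor side of the reaction, of 15 listed genes for sulfate supply and PAPS turnover 12 were tested, and 3 were lower and none higher in WT tumours against WT liver, with a list median of -0.31 beside 0.09 for all genes. Of all genes 4.7% were called lower and 3.64% higher there. Suox, which oxidises sulfite to sulfate, fell from 89.6 ± 32 to 9.92 ± 3.9 CPM (log2 fold change -3.17, SE 0.35, adjusted p = 4e-05). Slc26a1, a sulfate transporter, fell by 1.07 on the log2 scale (adjusted p = 0.012), and Bpnt1, which removes the by-product PAP, fell by 1.01 (adjusted p = 0.043). The Slc26a1 call was lost without WT liver replicate 2 (-0.73, adjusted p = 0.19), and the Bpnt1 call without WT liver replicate 1 (-0.47, adjusted p = 0.52), WT tumour replicate 1 or 2, or KO tumour replicate 1 or 3. None of the 12 passed in KO tumours against KO liver or between livers, where 0.0759% and 0.00632% of all genes did. In KO against WT tumours 2 were higher, Suox by 2.32 (adjusted p = 0.00042, and 2.07 with adjusted p = 0.0023 without KO tumour replicate 2) and Slc26a1 by 0.85 (adjusted p = 0.041, but 0.052 to 0.14 with any 1 tumour left out, and 0.091 without KO tumour replicate 2), with a median of 0.53. Of all genes 3.25% were called higher and 1.27% lower between tumours, with a median of -0.03. Suox also had an interaction of 2.42 (SE 0.49, adjusted p = 0.019), which did not pass without either KO liver or WT liver replicate 2 (adjusted p = 0.059 to 0.074) and was 2.17 without KO tumour replicate 2 (adjusted p = 0.044). Papss2, the main liver PAPS synthase and not among the 3 smallest p of the list, was at 104 ± 0.5 CPM in WT tumours and 151 ± 29 CPM in WT liver (adjusted p = 0.28).

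Other sulfotransferases set the members in context. Of 18 other cytosolic Sult rows 7 had a count and 4 were tested, among which Sult2a8 alone was called, lower in WT tumours against WT liver and higher in KO against WT tumours. Sult4a1, a brain form, stood at 4.63 ± 4 CPM in WT tumours and 0.252 ± 0.00068 CPM in WT liver (adjusted p = 0.23). The oestrogen sulfotransferase Sult1e1 was read only in WT tumour replicate 3 (54 counts) and KO tumour replicate 1 (15 counts). Of 18 Golgi sulfotransferases, which modify proteins and glycans, 16 were tested. None was called in any of the 5 comparisons, in which 0.00632 to 8.34% of all genes were called. The smallest p in WT tumours against WT liver belonged to Ndst2 (-0.98, adjusted p = 0.081).

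Regulators and sex-biased genes were compared because Sult2a5, Sult2a1 and Sult3a1 belong to families with female-biased liver expression. All 24 listed regulators were tested, and 6 were lower and none higher in WT tumours against WT liver (median -0.74). Of all genes 4.7% were lower and 3.64% higher in that comparison, with a median of 0.09. The 6 regulators included the growth hormone receptor Ghr (from 443 ± 34 to 85.3 ± 8.5 CPM, adjusted p = 4.4e-05) and FXR, Nr1h4 (from 97.7 ± 12 to 41 ± 6.6 CPM, adjusted p = 0.0059). In KO against WT tumours Ghr and Nr1h4 were higher, by 2.22 and 0.92 on the log2 scale (adjusted p = 5.5e-05 and 0.036), where 3.25% of all genes were called higher. Without KO tumour replicate 2 Ghr was still called (1.87), while Nr1h4 had an adjusted p of 0.18 and also lost its call without KO tumour replicate 3 or any 1 WT tumour (0.057 to 0.13). None of the 24 was called in KO tumours against KO liver or between livers, where 0.0759% and 0.00632% of all genes were called. Ghr alone had a called interaction (2.25, adjusted p = 0.0052, and 1.89 with adjusted p = 0.0028 without KO tumour replicate 2), beside 1.59% of all genes.

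Of 18 male-biased liver genes 16 were lower in WT tumours than in WT liver and none higher (median -3.55), beside 4.7% of all genes lower and 3.64% higher. In KO against WT tumours 15 were higher (median 3.61), beside 3.25% of all genes higher and 1.27% lower. None was called in KO tumours against KO liver, where none of all 15811 tested genes was called lower. The list median there was -0.41 beside 0.06 for all genes, so the lack of calls does not show that these genes were unchanged. The counts were also 16, 15 and 0 without KO tumour replicate 2. Elovl3 went from 383 ± 11 CPM in WT liver to 2.56 ± 1 CPM in WT tumours (adjusted p = 6.9e-08). Of 16 tested female-biased genes 3 were higher in WT tumours against WT liver, such as Cyp2a4, from 33.2 ± 13 to 1910 ± 330 CPM (adjusted p = 6.4e-05), and 3 were lower. In KO against WT tumours 1 was higher and 3 were lower (0 and 2 without KO tumour replicate 2). The female-biased Cyp2b9 was the gene of that list called in KO tumours against KO liver (8.6 ± 5.8 CPM against 0, adjusted p = 0.0068), where Sult2a5 did not pass. This call was lost when only the groups compared were fitted (adjusted p = 0.26). Without KO tumour replicate 2 there were 2 genes of the list called. Of all genes 0.0759% were called in that comparison, and 1.29% without that library. Whether these genes take part in the Sult2a5 or Sult2a8 values was not tested.

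The genes whose pattern over the 10 libraries was most like that of each abundant member were found by Pearson's r of log2(CPM + 1) among 7201 genes of at least 10 CPM on average, as a description over libraries that share the 4 groups. Sult2a5 was closest to Cacna1b (r = 0.989), Galnt6 (0.987) and Spink1 (0.984). Sult1b1 was closest to Zfhx4 (0.951), Sgk2 (0.949) and Tspan12 (0.94), and Sult1d1 to F13b (0.956), Ppp1r9a (0.921) and Rnf11 (0.9). Sult5a1 was closest to Tubg1 (0.969), Akr1c19 (0.96) and Apol9b (0.952). Sult1a1 had the weakest matches, with Tm6sf2 (0.896), Kdelr1 (0.888) and Sfxn1 (0.848). Between members, Sult1b1 and Sult5a1 each gave 0.77 with Sult2a8, and Sult1b1 gave -0.71 with Sult2a5.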

How the data were processed

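The authors deposited raw read counts for each gene, not normalized, in 1 table of 10 libraries. Per the submitters' processing notes BWA, featureCounts and the mm10 build were used, with roles, versions and the strand setting not given in the sources used here. Symbols were matched to 38872 of 39056 identifiers, and 184 had none. Positions and transcripts are from GENCODE M21 (GRCm38).

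From these counts, genes were filtered with filterByExpr, scaled by TMM, and fitted in R 4.3.3 with edgeR 4.0.16 (quasi-likelihood, a term per group, all 10 libraries). The residual degrees of freedom were 6 and the common coefficient of variation 71.8%. Benjamini-Hochberg adjustment covered all 15811 genes in each comparison. DESeq2 1.42.0 was an alternative, as were its size factors, no filter, a mean of at least 1 CPM, the compared groups alone, a replicate block, summed Sult2a rows and leaving out each library. The fit was tested on simulated counts. Replicate libraries gave a chi-square of 39.8 to 94.9 per degree of freedom, so none was deposited again. P-values measure the spread between these samples, which may be technical.

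The members and lists were chosen with earlier results of these data known. All 9 members are named, and of each context list up to 3 genes with the smallest p per comparison, and for likeness the 3 highest correlations. Marker lists served to check tissue. Reads without molecular identifiers are not molecules, so limits cover counting error only. No protein sequence was used here.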

Additional observations from a re-analysis of the deposited data

Results flagged for a closer look

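The following 6 values were set apart because the tumour-to-liver change differed between KO and WT mice by a test of that difference (edgeR interaction, log2 scale, Benjamini-Hochberg over all genes). The summed Sult2a rows gave 2.38 (adjusted p = 0.03), and Sult2a8, which makes up most of that sum, gave 4.79 (adjusted p = 6.7e-06). Suox gave 2.42 (adjusted p = 0.019), Ghr 2.25 (adjusted p = 0.0052) and the male-biased Elovl3 6.87 (adjusted p = 6.7e-06). The female-biased Cyp2a4 gave -3.82 (adjusted p = 0.016), or -3.18 with an adjusted p of 0.053 without KO liver replicate 2. None of the 9 sulfotransferases was among them. No formal outlier test was run on the groups of 2 and 3 libraries.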

How the results depend on the processing

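Sult2a5 in WT tumours against WT liver was called with each of the 10 libraries left out (log2 fold change 8.71 to 12, adjusted p 0.00019 to 0.037), with DESeq2 (10.08, adjusted p = 0.00079) and with a replicate block (9.48, adjusted p = 0.01). Replicate numbers did not pair the samples (correlation of deviations -0.08 to 0.05). Over 34 member results and 535 alternative values, 506 kept direction and side of the threshold, 14 newly passed and 15 changed sign, 1 of these for a called result, Sult2a5 replaced by the sum over its subfamily. Over 33 results of other named genes and 523 values, 492 did so, 29 no longer passed, 1 newly passed and 1 changed sign. Where no cause is named, the cause was not tested.

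The number of members called was 2, 1, 0, 3 and 1 without the low-count filter in WT tumours against WT liver, KO tumours against KO liver, between livers, between tumours and for the interaction. Between tumours it was 1 with DESeq2 (Sult1b1), where 8.17% of genes with an adjusted p were called. With the replicate block it was also 1 (Sult5a1, 3.32, adjusted p = 0.023). With 1 library left out the counts were 1 to 2, 0 to 1, 0 to 0, 0 to 1 and 0 to 1 in the same order. The library concerned was WT tumour replicate 2 for Sult5a1 in 3 comparisons, KO tumour replicate 2 for Sult2a5, and WT tumour replicate 1 for Sult1a1 between tumours (-1, adjusted p = 0.044). The share of all genes called is not given without the filter, with the block, or with a library other than KO tumour replicate 2 left out. The counts under those settings are therefore not a result about the members.

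With 1 library left out the summed Sult2a interaction ran from 2.13 to 3.07 and lost its call in 6 cases, and KO tumours against KO liver ran from -0.13 to 0.04 (0.13 with the replicate block). Without Sult2a8 the sum gave 3.52 in WT tumours against WT liver, 2.96 in KO tumours against KO liver, -1.3 between tumours and -0.56 for the interaction. Restricted to Sult2a1 to Sult2a6 it gave 9.78, 7.75, -2.02 and -2.04, and 0.02 between livers. Both sums were added after seeing the data, and these values have the opposite sign to those of the sum over all Sult2a rows. Replaced by the sum over all Sult2a rows, Sult2a5 read -2.4, -0.02, 2.19 and 2.38 in these 4 comparisons, and Sult2a2 -2.4 and -0.02 in the first and the second.

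Other sign changes were of uncalled values. Nr1i3 in WT tumours against WT liver was 0.11 without WT liver replicate 2. With 1 library left out, Sult1b1 in KO tumours against KO liver ran from -0.08 (without KO tumour replicate 2) to 0.27. Sult1c2 ran from -0.66 to 0.68 between tumours (-0.16 with the replicate block) and from -0.34 to 8.09 in WT tumours against WT liver (-0.39 with the block). Sult5a1 ran from -0.35 to 1.96 between livers and from -1.63 to 0.16 in KO tumours against KO liver, with the changed signs without KO liver replicate 2. Tested genes called by DESeq2 numbered 1265 higher and 1103 lower in WT tumours against WT liver (edgeR 575 and 743), 385 and 42 in KO tumours against KO liver (12 and 0), 89 and 113 between livers (0 and 1), 823 and 393 between tumours (514 and 201), and 469 and 263 for the interaction (193 and 58). Sult1c2, Sult2a1, Sult2a2 and Sult3a1 were at 0 in 4 to 8 of the libraries, which limits what their comparisons can show. Whether depth is the reason was not tested.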

Other observations

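Sult2a1, Sult2a2 and Sult2a7 each had exactly 31 counts in WT tumour replicate 1, and Sult2a7 also had 31 in KO tumour replicate 2. The 3' end of Sult2a7 shared no stretch of 50 bases with the other Sult2a genes. Over all libraries Sult2a7, at the far edge of the cluster beside Sult2a8, was read with 58 and 39 counts in the WT livers, 0 and 52 in the KO livers, 31, 0 and 0 in the WT tumours, and 97, 31 and 105 in the KO tumours. It did not pass between KO and WT tumours (adjusted p = 0.4).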
